A study of Mus musculus with 100 samples.

Results

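NCoR binding sites at which HDAC3 was not called were examined in mouse bone marrow-derived macrophages (BMDMs), in chromatin immunoprecipitation followed by sequencing (ChIP-seq). A site was taken when no HDAC3 peak centre lay within 1000 bp of the centre of the NCoR peak. This was the case for 9393 of 55045 NCoR peaks (17.1%), and the other 45652 had an HDAC3 peak. The HDAC3 tags were counted over the called HDAC3 peaks, so the absence of a peak is not a measurement of 0 HDAC3 at these sites. The NCoR, HDAC3, p65, Fosl2, PU.1, PGC1β, ERK1 and p300 libraries came from wild-type C57Bl6 BMDMs given either vehicle (Veh) or the TLR4 ligand KLA (Kdo2 lipid A), the latter for 6 h. NCoR was also profiled in wild-type cells given KLA with the ERK inhibitor LY3214996 (ERKi). The histone acetylation H3K27ac, which is found at promoters and enhancers in use, was measured with Veh or KLA in cells labelled WT that carried NCoR flox/flox alleles, and in NKO cells that carried the same alleles with LysMCre, a Cre recombinase driven in myeloid cells. A further H3K27ac experiment in wild-type cells used the HDAC3 inhibitor RGFP966 with KLA, beside the solvent DMSO with Veh or with KLA. Each group had 2 libraries. The authors state that ChIP was done in biological replicates, but neither they nor the labels say that these came from separate animals or cultures. The p-values measure the spread between these libraries, which may be technical in part.

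NCoR is a corepressor that has no DNA-binding domain and is brought to chromatin by nuclear receptors and other transcription factors. HDAC3, a histone deacetylase, is its main enzymatic partner and is activated by binding to the deacetylase activating domain of NCoR. TBL1X, TBLR1 and GPS2 are further subunits of this complex. In macrophages, the complex is known for keeping inflammatory and lipid metabolism genes low before a signal arrives.

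Library totals ranged from 4.30 to 21.5 M tags, with 8.37 and 8.50 M for NCoR with Veh and 12.35 and 14.46 M with KLA. Of the HDAC3 libraries, KLA replicate 2 was shallow at 5.69 M tags, against 13.75 to 18.08 M in the other 3, and its part in which sites lacked an HDAC3 peak was not tested. All values below are tags scaled to 10 M of the library total. In the H3K27ac table, regions close to the start site were found for 4 of 8 macrophage markers (Cd68, Itgam, Spi1 and Fcgr3), at 8.17 to 232 tags per 10 M over the libraries. Of 12 markers of T, B, erythroid and fibroblast cells, Klf1 alone had such a region, at 0 to 7.96 tags per 10 M. The authors counted this mark over peaks of open chromatin or of factors, so markers without a region cannot be called absent.

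Sequences of 6 of the sites named below are shown as examples picked by hand. NCoR was called higher or lower with KLA at 5 of them. It was not called at Usp12, the strongest promoter among the sites. The sequences are taken from mm10 (GRCm38.p6), plus strand, in 200 bp around the centre of the NCoR peak. For Usp12 only the 106 bp upstream of its annotated exons are given. Capitals mark matches, on either strand, to the letters of 16 searched motifs. The regions are chr10:18917360-18917559 between Perp and Tnfaip3, chrX:129680681-129680880 upstream of Diaph2, chr15:50360759-50360958 between Csmd3 and Trps1, chr19:3687652-3687851 upstream of Lrp5, chr2:164864602-164864801 upstream of Pltp and chr5:146794957-146795062 at the Usp12 promoter.
Perp (higher with KLA): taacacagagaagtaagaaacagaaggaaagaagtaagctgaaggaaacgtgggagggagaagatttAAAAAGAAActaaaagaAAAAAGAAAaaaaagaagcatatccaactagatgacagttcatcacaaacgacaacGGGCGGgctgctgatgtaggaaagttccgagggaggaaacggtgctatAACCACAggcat
Diaph2 (higher with KLA): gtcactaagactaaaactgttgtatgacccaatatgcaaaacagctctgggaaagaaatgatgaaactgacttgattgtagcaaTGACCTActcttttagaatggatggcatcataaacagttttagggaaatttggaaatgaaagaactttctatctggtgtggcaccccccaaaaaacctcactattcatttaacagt
Trps1 (higher with KLA): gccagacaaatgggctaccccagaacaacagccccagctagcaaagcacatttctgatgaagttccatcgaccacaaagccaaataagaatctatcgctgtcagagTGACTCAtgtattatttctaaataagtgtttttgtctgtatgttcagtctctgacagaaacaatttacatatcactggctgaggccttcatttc
Lrp5 (lower with KLA): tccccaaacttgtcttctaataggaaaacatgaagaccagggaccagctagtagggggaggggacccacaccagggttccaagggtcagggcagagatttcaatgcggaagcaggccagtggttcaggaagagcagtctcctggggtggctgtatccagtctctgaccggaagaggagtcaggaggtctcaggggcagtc
Pltp (lower with KLA): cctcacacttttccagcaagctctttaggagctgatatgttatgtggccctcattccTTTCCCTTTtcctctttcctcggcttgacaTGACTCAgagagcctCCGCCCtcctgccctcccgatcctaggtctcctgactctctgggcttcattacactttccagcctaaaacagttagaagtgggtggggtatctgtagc
Usp12 (promoter, not called): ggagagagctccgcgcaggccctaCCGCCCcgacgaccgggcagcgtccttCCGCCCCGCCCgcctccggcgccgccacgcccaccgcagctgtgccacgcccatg

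At Perp, the capitals mark AAANNGAAA, the letters of an interferon regulatory factor (IRF) site, at 2 places, GGGCGG (SP/KLF) and AACCACA (RUNX). At Trps1 they mark TGANTCA, the AP-1 site. At Pltp they mark AP-1, and IRF and SP/KLF on the minus strand. The match at Diaph2 is TAGGTCA, the site of ROR and REV-ERB receptors, on the minus strand, and Lrp5 held none of the 16. At Usp12 the 3 matches are SP/KLF letters on the minus strand, and 2 of them share a base. These matches are descriptions of the letters and were not tested as sites.

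NCoR sites without HDAC3 were weak sites. Their median signal, as a mean of the 4 Veh and KLA libraries, was 19.7 tags per 10 M, against 48.3 at sites with HDAC3, and the strongest reached 195 against 1045. Peaks had similar widths (medians of 229 and 234 bp). Among NCoR peaks ordered by signal, 57.1% of the weakest decile had no HDAC3 peak, 11.5% of the decile just below the median, and 1 and 2 peaks in the top 2 deciles. Of the sites without HDAC3, 62.9% had been called as NCoR peaks only with KLA, 26.9% only with Veh and 10.1% in both conditions. At sites with HDAC3, these shares were 38.4%, 8.43% and 53.2%. The KLA libraries of NCoR were deeper than the Veh libraries, and the part of depth in these shares was not tested.

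**Figure D1:**
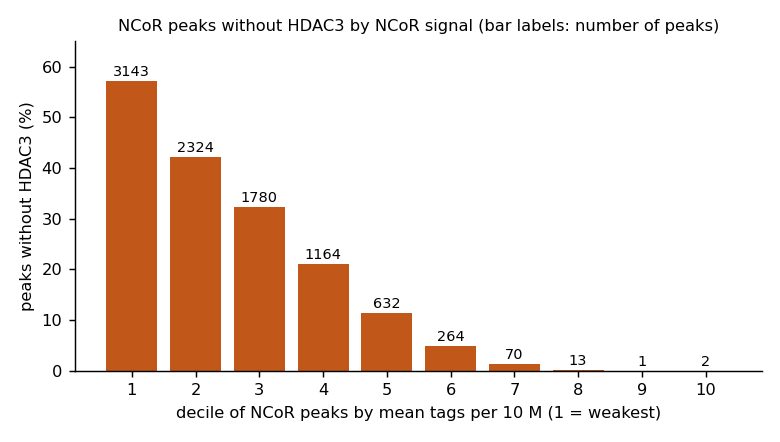
Share of NCoR peaks without an HDAC3 peak within 1000 bp (y axis, %) in each decile of NCoR signal (x axis, mean tags per 10 M over 4 libraries, 1 is the weakest decile), with the number of such peaks above each bar. The share falls from 57.1% in the weakest decile to 0.0363% in the strongest.

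By annotation, introns held 49.0% of the sites without HDAC3 (45.6% of those with HDAC3), intergenic sequence 35.7% (37.8%) and promoters 10.6% (12.5%), and 82.5% (79.6%) were distal, meaning over 2 kb from the nearest annotated start of transcription (TSS). Long terminal repeats (LTRs) held 8.92% against 7.88%, and short interspersed elements 4.01% against 2.97%. The sites were assigned to 5938 genes, of which 1421 had no NCoR peak with HDAC3. They were often near other sites: the median distance to the nearest HDAC3 peak was 7.05 kb, and 56.0% lay within 10 kb of an NCoR peak with HDAC3. These shares are descriptions, and the difference between classes was not tested for this or for the following counts of neighbouring peaks.

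Peaks just outside and just inside the limit of 1000 bp had like values. The 870 NCoR peaks at 1000 to 1500 bp from an HDAC3 peak had a median of 21.1 tags per 10 M, 36.8% had a p65 peak and 11.3% an H3K27ac region within 500 bp. The 1386 peaks just inside, at 500 to 1000 bp, had 21.6 tags per 10 M, with p65 at 36.2% and H3K27ac at 15.4%. Peaks within 100 bp of an HDAC3 peak had 50.8 tags per 10 M, with p65 at 81.9% and H3K27ac at 36.3%. Of the sites named below, those at Trps1 (1032 bp), Ccl4 (1348 bp) and Tbl1x (1495 bp) lay in the band just outside the limit, and those at Runx1 (1645 bp) and Vdr (1825 bp) within 2000 bp of an HDAC3 peak.

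Other factors were found less often at the sites without HDAC3. The NFκB subunit p65 had a peak within 500 bp of 40.2% of them, against 80.3% of sites with HDAC3. The AP-1 factor Fosl2 was at 16.6% against 59.4%, the macrophage lineage factor PU.1 at 37.5% against 68.6%, and the coactivator PGC1β at 19.7% against 60.0%. The kinase ERK1 was at 12.4% against 51.2% and the histone acetyltransferase p300 at 54.1% against 86.9%. None of these 6 factors had a peak at 1846 sites without HDAC3 (19.7%, against 2.93%), and all 6 were at 61 (0.649%, against 28.6%). The peaks that were present were weak too: p65 peaks beside these sites had a median of 20.3 tags per 10 M and p300 peaks of 20.96, against 44.9 and 45.9 beside sites with HDAC3.

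The shares were also counted among sites of like NCoR signal. In the lowest quintile of NCoR signal, which held 5467 of the sites without HDAC3, p65 was at 39.4% against 63.1% and p300 at 50.2% against 68.7%. PU.1 was at 25.6% against 26.3% in this quintile, at 52.7% against 52.1% in the next and at 57.9% against 66.8% in the middle one. H3K27ac regions were at 7.99% against 11.6% in the lowest quintile and at 20.2% against 21.9% in the next. In that next quintile p65 was at 38.8% against 67.7%, Fosl2 at 22.1% against 35.8%, PGC1β at 26.2% against 40.2%, ERK1 at 15.7% against 28.7% and p300 at 58.8% against 77.3%.

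**Figure D2:**
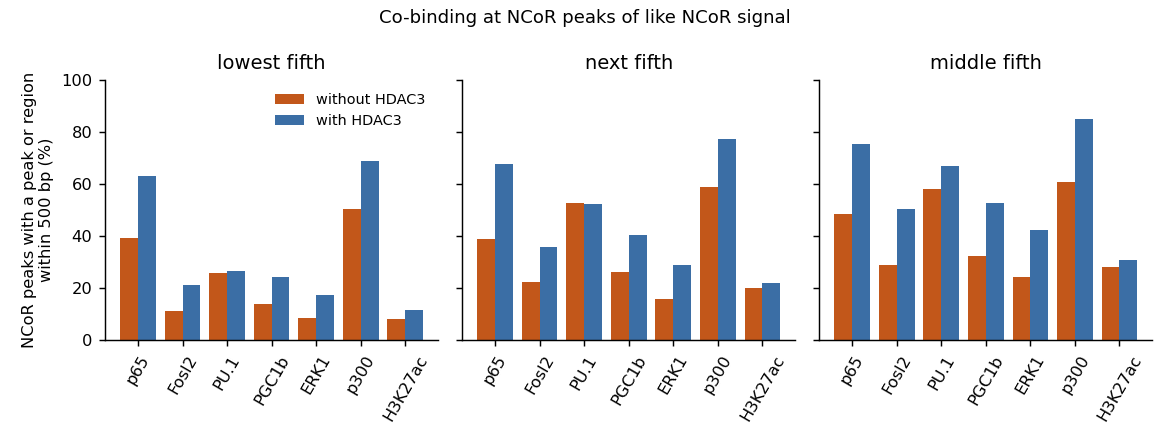
Share of NCoR peaks (y axis, %) with a peak of each of 6 factors or an H3K27ac region within 500 bp (x axis), without HDAC3 (orange) and with HDAC3 (blue), in the 3 lower quintiles of NCoR signal. In the lowest quintile p65 was at 39.4% and 63.1%, and PU.1 at 25.6% and 26.3%.

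H3K27ac regions were beside 14.1% of the sites without HDAC3, against 36.0%. At promoters the shares were 73.3% and 76.1%, while at distal sites they were 5.96% and 29.5%, not matched for NCoR signal. The median H3K27ac at the 465 distal regions beside sites without HDAC3 was 3.15 and 3.57 tags per 10 M in the WT Veh libraries and 2.52 and 2.76 in the WT KLA libraries. At the 951 regions within 2 kb of a TSS it was 17.0 and 16.8 with Veh, and 17.0 and 18.6 with KLA.

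With KLA, NCoR rose at 2175 of the 9393 sites without HDAC3 (23.2%) and fell at 1918 (20.4%). Across all 55045 NCoR peaks 23.4% rose and 16.7% fell, and the median log2 change was 0.17 at these sites and 0.10 over all peaks. A change was called at more than 2-fold with a Benjamini-Hochberg adjusted p under 0.05 in edgeR's quasi-likelihood test over all peaks. In such bulk libraries, fewer cells with NCoR at a site and less NCoR per cell cannot be told apart. Every one of the 55045 peaks passed the filter on low counts. The direction of a change was largely fixed by the condition in which a site had been called as a peak, since the same libraries gave both. Of the 2175 rises 2173 were at the 5912 sites called only with KLA, where 17 fell, and the 2528 sites called only with Veh had 1707 falls and 0 rises by edgeR. Sites with HDAC3 called only with KLA had 8974 rises and 58 falls, and those called only with Veh 5 and 2606. The counts by NCoR signal are therefore descriptions. In the lowest quintile 1921 of 5467 sites without HDAC3 rose (35.1%) and 710 fell (13.0%). In the next, 207 of 2944 rose (7.03%) and 891 fell (30.3%). In the middle quintile 40 of 896 rose (4.46%) and 301 fell (33.6%). With HDAC3, 2916 of 5542 rose (52.6%) and 215 fell (3.88%) in the lowest quintile. In the next, 2413 of 8065 rose (29.9%) and 881 fell (10.9%). In the middle one 2212 of 10113 rose (21.9%) and 1821 fell (18.0%). In the upper ones 1878 rose and 2227 fell of 10926, then 1272 and 2145 of 11006. Over all peaks of the 3 lower quintiles 43.9%, 23.8% and 20.5% rose, and 8.40%, 16.1% and 19.3% fell. The upper quintiles held 83 and 3 sites without HDAC3, where 5 rose and 15 fell, then 2 rose and 1 fell. The mean over the same 4 libraries ordered the quintiles. Leaving out a KLA library lowered the counts most: without KLA replicate 1, 188 rose and 622 fell, and without KLA replicate 2, 147 rose and 571 fell.

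The share of all NCoR tags in peaks that fell in sites without HDAC3 was 6.21% and 5.95% with Veh and 5.82% and 6.06% with KLA. The groups overlapped, with a difference of -0.137 percentage points (two-sided exact permutation test, p = 0.667, where 2 against 2 libraries cannot go below 0.33). The difference of the means was smaller than the gap between the replicates of either group.

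The site with the most NCoR among those that rose lay on chromosome 10 between Perp, a p53 target of desmosomes, and Tnfaip3, the deubiquitinase A20 that limits NFκB signalling. It held 43.0 and 48.3 tags per 10 M with Veh and 241 and 203 with KLA (means 45.6 ± 3.71 and 222 ± 26.8, SD, n = 2). Both KLA libraries were well above both Veh libraries, a log2 change of 2.28 ± 0.24 (SE, adjusted p = 0.0001 in edgeR). All 6 factors had a peak there. p65 rose from 14.9 and 25.2 to 166 and 201 tags per 10 M, PU.1 from 9.31 and 6.85 to 75.2 and 89.9, and p300 from 15.7 and 18.4 to 97.2 and 109. No H3K27ac region lay within 500 bp of it.

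In an intron of Fpr1, which encodes the formyl peptide receptor of phagocytes, NCoR was at 33.5 and 38.8 tags per 10 M with Veh and 191 and 223 with KLA. The groups did not overlap, with a log2 change of 2.52 ± 0.25 (adjusted p = 8.1e-05). This site overlapped a LINE element of the L1 family, and all 6 factors had a peak there. p65 rose from 4.38 and 1.86 to 327 and 328 tags per 10 M, and Fosl2 from 28.2 and 12.6 to 275 and 401. H3K27ac beside it was at 30.3 and 31.1 with Veh and at 25.2 and 41.4 with KLA, which overlap. Within Gtdc1 as RefSeq annotates it, 62.7 kb from Zeb2, NCoR rose from 27.5 and 50.6 to 127 and 129 tags per 10 M, by 1.71 ± 0.31 on the log2 scale (adjusted p = 0.0016), with no PU.1 peak among the 5 factors found there.

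The other sites with the lowest p-values among those that rose had almost no NCoR with Veh. At a site 68.9 kb upstream of Diaph2, on the X chromosome, no tag was counted in either Veh library. With KLA it held 52.7 and 53.3 tags per 10 M, at least 29.8-fold higher against a floor of 3 tags over both Veh libraries. p65 (0 and 0 with Veh, 120 and 127 tags per 10 M with KLA) and p300 (1.25 and 0, then 181 and 159) showed the same order of levels there. The Trps1 site, 294 kb from the gene, held 1 tag with Veh and 55.9 and 48.4 tags per 10 M with KLA. This is a ratio of 87.5 (95% counting interval 15.4 to 3479). A site 3.16 kb from Ubxn2a, in an LTR, also held 1 tag with Veh and 53.5 and 60.9 tags per 10 M with KLA, a ratio of 96.9 (17.1 to 3852), and p65 was its only factor. These intervals and floors cover counting error only.

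Among the sites that fell, the one with the lowest p-value lay 1.17 kb upstream of Lrp5, which encodes a Wnt co-receptor. NCoR there was at 89.6 and 106 tags per 10 M with Veh and at 8.91 and 4.84 with KLA, a log2 change of -3.83 ± 0.41 (adjusted p = 0.00012). PU.1 fell beside it from 57.4 and 43.6 to 9.16 and 8.28 tags per 10 M, and p65, Fosl2 and p300 had no peak. The Tfr2 site lay in an intron of Actl6b, 1.48 kb upstream of the gene for transferrin receptor 2. NCoR fell there from 71.7 and 76.5 to 4.86 and 5.53 tags per 10 M, and PU.1 from 31.5 and 34.9 to 7.85 and 9.56. In an intron of Ak8, in an LTR, NCoR fell from 82.4 and 68.3 to 4.05 and 4.84, with PGC1β as the only factor. In another LTR, in an intron of Pgpep1l, it was at 56.2 and 55.3 with Veh and no tag was counted with KLA, at least 49.8-fold lower. The site assigned to Mir6388, 138 kb away, held 60.9 and 45.9 tags per 10 M with Veh and 3 tags in all with KLA, and none of the 6 factors was there.

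**Figure D3:**
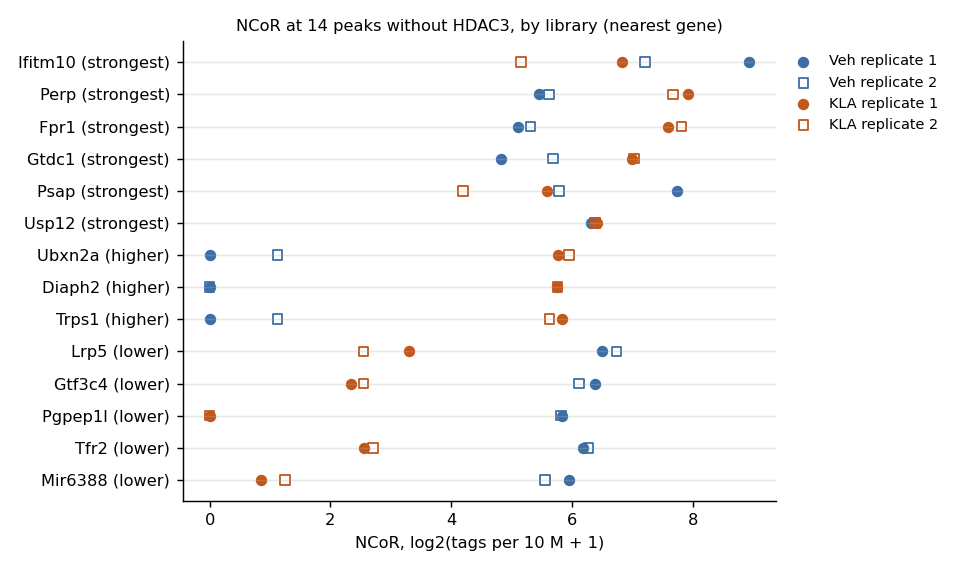
NCoR signal (x axis, log2 of tags per 10 M + 1) in each Veh (blue) and KLA (orange) library at 14 named sites without HDAC3 (y axis), replicate 1 as filled circles and replicate 2 as open squares. The Veh and KLA libraries are apart at Perp, Diaph2, Lrp5 and Tfr2, lie on top of each other at Usp12, and at Ifitm10 and Psap the 2 replicates of a group differ by more than 2-fold.

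The strongest site at a promoter was not called. At Usp12, a ubiquitin-specific protease, NCoR was at 78.9 and 82.4 tags per 10 M with Veh and at 84.2 and 83.0 with KLA (log2 change 0.05 ± 0.25, adjusted p = 0.88 in edgeR), while p300 beside it fell from 65.8 and 52.6 to 31.7 and 20.0. Its H3K27ac was low, at 4.41 and 9.68 tags per 10 M with Veh and 7.55 and 4.83 with KLA.

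Some of the strongest sites differed between replicates in the same way in both groups. The site with the most NCoR of all, assigned to Ifitm10, lies in the 3' UTR of Ctsd, which encodes the lysosomal protease cathepsin D. It held 487.5 and 147 tags per 10 M with Veh and 113 and 34.6 with KLA, so that replicate 1 was over 2-fold above replicate 2 in both conditions. The log2 change was -2.13 ± 0.55 (adjusted p = 0.0095 in edgeR, 0.11 with DESeq2, -1.03 without Veh replicate 1 and, no longer called, -1.49 without KLA replicate 2). The site assigned to Psap, which encodes prosaposin, held 211 and 54.1 with Veh and 47.0 and 17.3 with KLA, and its change of -2.06 (adjusted p = 0.015 in edgeR, 0.13 with DESeq2) was -0.78 without Veh replicate 1 and -1.50 without KLA replicate 2, both no longer called. Such an excess of replicate 1 in both conditions was seen at 8 of 9393 sites, and the opposite excess, of replicate 2 in both, at 20. At sites with HDAC3 these counts were 13 and 30 of 45652. Of the 8 sites, 3 lie in Ctsd, 2 in Psap and 1 in the 3' UTR of Gpnmb, an abundant glycoprotein of macrophage lysosomes. Those 6 are all in or at the end of transcribed genes, are called lower with KLA, and were singled out after their values were seen. Of the 361 sites in an exon, 3' UTR or transcription end, 6 were of this kind and 1 of the opposite kind. At the 1504 such sites with HDAC3 these counts were 4 and 0. Without the 361 sites, 2091 rose and 1834 fell. What sets the sites with an excess of replicate 1 apart was not tested.

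Groups of genes from lists were counted next, with the list members assigned by the nearest gene. Around 31 TLR4-induced cytokines, chemokines and enzymes there were 15 sites without HDAC3 of 222 NCoR peaks, and 8 rose and 1 fell. Around 25 NFκB and TLR signalling genes 15 of 29 rose and 3 fell, and around 25 interferon and STAT genes 9 of 18 rose and 2 fell. In the other lists the sites that fell and rose numbered 5 and 2 of 14 for AP-1 and ATF factors, 6 and 3 of 19 for LXR targets and lipid genes, 6 and 3 of 26 for genes of the NCoR complex and HDACs, 8 and 7 of 46 for macrophage lineage factors and receptors and 8 and 7 of 29 for clock and nuclear receptor genes. Over all peaks 16.7% fell and 23.4% rose. At peaks with HDAC3 of the same lists, 29 fell and 25 rose of 129 for AP-1 and ATF factors. The counts were 25 and 16 of 100 for LXR targets and 30 and 26 of 127 for the NCoR complex. They were 52 and 58 of 299 for macrophage factors and 36 and 41 of 186 for clock and nuclear receptor genes. The median log2 changes of the first 3 lists were 1.84, 1.73 and 1.55, against 0.10 over all peaks. At NCoR peaks with HDAC3 the same 3 lists had medians of 1.70, 0.96 and 1.11. There, 121 rose and 10 fell of 207, 116 and 12 of 256, and 69 and 11 of 140. The lists were chosen with results of these data known, and nothing is tested here for a list.

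The strongest sites of the lists are given next, and none of those given was called higher. For Ccl4, which encodes a chemokine, NCoR was at 39.4 and 43.5 tags per 10 M with Veh and 34.8 and 45.0 with KLA. For Il1b, encoding the cytokine interleukin 1β and 60.3 kb from the site, it was at 11.9 and 56.5, and at 30.0 and 54.0, where Veh replicate 1 stood low. Nfkbiz, an inducible NFκB regulator, had 40.6 and 44.7, then 38.9 and 56.0. None of these passed the test, and at each of them the groups overlapped.

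Lower levels with KLA were called at 5 of the list sites. At the promoter of Irak4, the kinase downstream of TLRs and MYD88, NCoR fell from 63.3 and 85.9 to 28.4 and 24.2 tags per 10 M (log2 change -1.51 ± 0.34, adjusted p = 0.005). Upstream of Pltp, which encodes phospholipid transfer protein and is a target of LXR, it fell from 56.2 and 71.8 to 8.91 and 14.5 (-2.42 ± 0.42, adjusted p = 0.0013), and PU.1 fell from 46.0 and 43.6 to 8.51 and 5.10. In an intron of Vdr, the vitamin D receptor, it fell from 69.3 and 60.0 to 29.2 and 13.8. At the promoter of Tbl1x, a subunit of the NCoR complex itself, it fell from 43.0 and 74.2 to 24.3 and 9.68. A site 45.9 kb from Fos fell from 64.5 and 37.7 to 13.0 and 25.6. In all 5 both KLA libraries were below both Veh libraries. With 1 library fewer, the calls at Irak4 and Fos were lost without either KLA library, that at Fos also without Veh replicate 1, and those at Vdr and Tbl1x without KLA replicate 2, where the changes were -1.15 and -1.27.

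Other list sites were not called. In Abca1, the LXR-regulated cholesterol exporter, NCoR was at 45.4 and 56.5 tags per 10 M with Veh and at 26.7 and 28.4 with KLA (adjusted p = 0.067 in edgeR). In Irf2, an interferon regulatory factor, it was at 43.0 and 56.5, and at 33.2 and 27.7. In both the groups did not overlap, and the changes of -0.88 and -0.71 were below 2-fold. At Runx1, a lineage factor, the values were 56.2 and 65.9, then 50.2 and 58.1, and at Batf3, Maf, Dbp and the site assigned to Mx1 the groups overlapped in the same way.

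The factors beside these sites changed with KLA in both directions. p65 was called higher at 2139 of 3781 p65 peaks beside sites without HDAC3 and lower at 245 (57.0% and 5.43% of all p65 peaks), with 1093 and 823 when scaled by TMM, which lowered the median of all p65 peaks by 1.22 on the log2 scale. p300 was higher at 2221 and lower at 723 of 5159 (42.1% and 12.9% of all), and with TMM 1759 and 1268, a shift of -0.52. PU.1 was higher at 76 and lower at 1075 of 3587 (4.53% and 21.7% of all), and with TMM 193 and 570, a shift of 0.42. PGC1β was higher at 286 and lower at 141 of 1844 (16.4% and 6.35% of all), and TMM shifted the median of all peaks by -0.11. Fosl2 was higher at 149 and lower at 117 of 1552 (11.4% and 4.19% of all), and with DESeq2 183 and 266. ERK1 was higher at 108 and lower at 49 of 1154 (10.3% and 2.53% of all), and with TMM 83 and 69, a shift of -0.20.

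Single libraries weighed on these counts. Without p65 KLA replicate 1 or 2 there were 973 or 849 calls, without ERK1 KLA replicate 1 or 2 there were 34 (6 higher, 28 lower) or 26 (9 higher, 17 lower), and without PGC1β Veh replicate 1 or 2 there were 157 or 155. Without p300 KLA replicate 1 there were 1907. For Fosl2 there were 546 or 794 calls without KLA replicate 1 or 2 and 0 by edgeR without Veh replicate 1 or 2, where 121 peaks each had an unadjusted p under 0.05. The 2 Fosl2 KLA libraries had 16.4% and 32.3% of their tags in peaks.

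Factor changes were then counted by the direction of NCoR. Where NCoR rose at sites without HDAC3, 55.1% of sites had a p65 peak and 56.6% a p300 peak, and 1101 of 1198 p65 peaks and 1109 of 1230 p300 peaks also rose (772 and 1002 with TMM). PU.1 was at 9.38% of them. Where NCoR fell, 56.4% had a PU.1 peak, of which 700 of 1081 fell and none rose, and with TMM 451 fell. p65 was at 20.9% of those, with 37 higher and 126 lower (9 and 280 with TMM), and 441 of 930 p300 peaks fell (622 with TMM). PGC1β rose at 174 of 278 sites where NCoR rose, and fell at 101 of 431 where NCoR fell. Sites with HDAC3 showed the same order of counts: 8755 of 9273 p65 peaks rose where NCoR rose (6572 with TMM), and 3281 of 6337 PU.1 peaks fell where NCoR fell (1753 with TMM). The share of sites with a peak differed more, as 86.7% of the sites with HDAC3 where NCoR rose had a p65 peak and 38.0% a PU.1 peak.

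**Figure D4:**
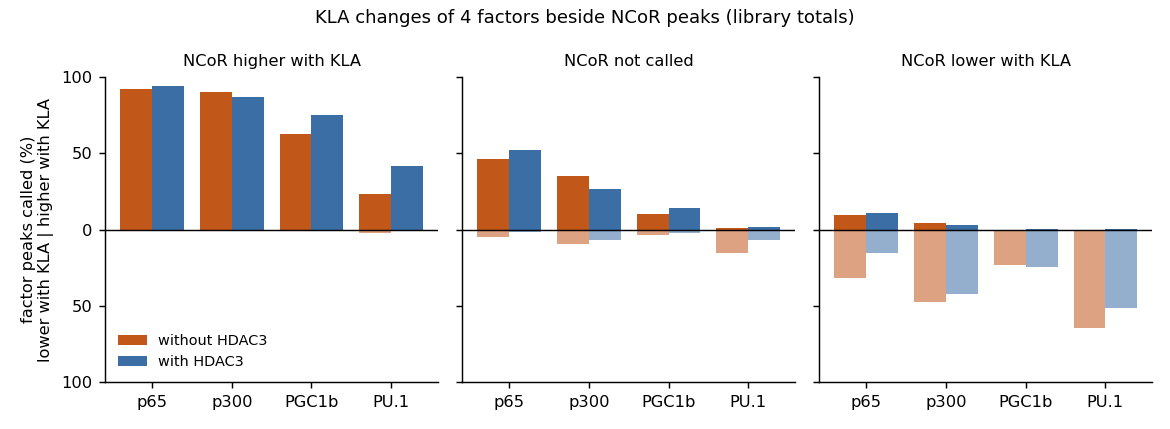
Share of p65, p300, PGC1β and PU.1 peaks (x axis) called higher (bars above 0) or lower (bars below 0) with KLA (y axis, %), beside NCoR peaks without (orange) or with (blue) HDAC3 at which NCoR was called higher, not called or called lower. Beside sites without HDAC3, 91.9% of p65 peaks were higher where NCoR was higher, and 64.8% of PU.1 peaks were lower where NCoR was lower.

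Sequence letters were compared by the presence of HDAC3 and by the direction of NCoR. The 200 bp windows of 55038 NCoR peaks on placed chromosomes were searched, on both strands. The IRF letters were in 15.7% of sites without HDAC3 and 16.2% of those with it (16.1% of all), the AP-1 letters in 18.5% and 21.4% (20.9% of all), and the PU.1 letters GAGGAAGT in 9.34% and 10.9% (10.7% of all). Among sites without HDAC3, IRF was in 27.03% of those where NCoR rose and 7.30% of those where it fell. The NFκB letters GGANTTTCC were in 4.18% and 0.417% (2.20% of all) and AP-1 in 22.6% and 12.7%. At sites with HDAC3 the split was much the same, with IRF in 27.2% and 8.17%, NFκB in 5.24% and 0.727% and PU.1 in 6.01% and 15.7%. The windows that rose were richer in A and T, with a median GC content of 42% against 49.5% for those that fell without HDAC3, and 43% against 50% with HDAC3, and the part of base composition in the A-rich IRF letters was not tested. Without HDAC3, PU.1 was in 5.43% and 13.0%, and RUNX in 7.68% and 12.3% (9.73% of all). At promoters without HDAC3, 59.7% held GGGCGG, against 52.5% of promoters with HDAC3. SP/KLF letters were in 11.3% of all windows, C/EBP letters (TTGCNNAA) in 16.3% and the ROR and REV-ERB letters in 2.66%. The other motifs searched were CRE (TGACGTCA, 0.872% of all windows), E-box (TCACGTGA, 0.512%), ETS (CCGGAAGT, 1.62%), NRF1 (GCATGCGC, 0.685%), YY1 (AAGATGGCG, 0.287%), BCL6 (TTCCTAGAA, 0.629%), REST (GGACAGCGC, 0.0836%) and CTCF (AGGGGGCGC, 0.291%). Matches of different motifs may overlap. Any of the 16 was in 65.2% of the sites without HDAC3, against 68.3% of all.

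Of the 1846 sites without any of the 6 factors, NCoR rose at 550 and fell at 361 (29.8% and 19.6%, against 23.4% and 16.7% over all peaks). The IRF letters were in 24.97% of these sites, against 16.1% of all windows. The lowest quintile of NCoR signal held 1387 of the 1846. Among all its sites without HDAC3, 35.1% rose, 13.0% fell and 18.7% held the IRF letters. Of the 1337 sites with HDAC3 and none of the 6 factors, 505 rose and 150 fell, and 30.1% held these letters. The median GC content was 44.5% in both.

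With KLA and ERKi, NCoR fell at 3258 and rose at 30 of 9378 sites without HDAC3, by library totals, against KLA alone. These were 34.7% and 0.320% of the sites, against 54.1% and 0.231% of sites with HDAC3. Of all 57573 peaks counted with these libraries, 48.6% fell and 0.634% rose. The median log2 change was -1.32 at sites without HDAC3, -1.24 at those with it and -1.20 over all peaks. Scaling by TMM moved the median of all peaks by 1.16 on the log2 scale, and then 196 sites fell and 144 rose, and DESeq2 gave 249 and 267. The ERKi libraries carry another date-like tag in their names than the KLA and Veh libraries of NCoR, which share one, so that the inhibitor and the set of libraries cannot be told apart. They had 15.8% and 15.0% of their tags in peaks, against 34.2% and 33.3% in the KLA libraries. Without KLA replicate 1, 701 fell and 12 rose, and without KLA replicate 2, 649 fell and 4 rose. The KLA libraries are those of the comparison with Veh, so both are given as values only. At Perp NCoR was at 82.8 and 85.3 tags per 10 M with ERKi, between the levels with Veh and with KLA, and at Fpr1 it was at 66.8 and 111. At Tfr2 it was at 13.5 and 24.1, above both KLA libraries (4.86 and 5.53) and below both Veh libraries, against the direction of most sites. At the sites assigned to Ifitm10 and Psap, where replicate 1 had stood above replicate 2, ERKi libraries held 3.38 and 4.31, and 0 and 0.

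Few H3K27ac regions beside these sites were called with KLA. In WT cells 30 of 999 tested regions rose and 27 fell, from 1416 regions beside sites without HDAC3, against 6.49% and 3.72% of all tested regions. The filter of 16 tags in 1 library kept 185 of the 465 distal regions and 814 of the 951 proximal ones. TMM, with a shift of -0.14 in the median of all regions, gave 20 and 34, and DESeq2 12 and 27. Without WT Veh replicate 1 or 2 there were 29 or 27 calls. Beside sites with HDAC3, 1025 of 12815 regions rose and 514 fell. Of 4685 tested regions with no NCoR peak, 144 rose and 147 fell (3.07% and 3.14%), so shares this low were not particular to sites without HDAC3. At the promoter of Thg1l, a tRNA guanylyltransferase, H3K27ac rose from 66.8 and 64.2 to 193 and 196 tags per 10 M (log2 change 1.57 ± 0.17, adjusted p = 1.2e-09 in edgeR). NCoR rose there too, from 1.19 and 3.53 to 39.7 and 36.7. At the promoter of Ctdsp2, a small phosphatase, H3K27ac fell from 151 and 171 to 45.3 and 39.3 (-1.93 ± 0.20), while NCoR was at 40.6 and 24.7 with Veh and 32.4 and 20.1 with KLA. NKO cells had levels near those of WT at both: 176 and 198 at Thg1l and 54.7 and 41.7 at Ctdsp2, with KLA.

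In NKO cells without KLA, H3K27ac was higher than in WT at 8 of the 999 regions and lower at 0 (0.973% and 0.0270% of all). At an unadjusted p under 0.05 edgeR gave 114 and 8, and 2793 and 166 of all 18504 tested regions. The median log2 change was 0.27 at the 999 regions and 0.30 over all. TMM and DESeq2 moved the median of all regions by -0.30 and -0.29. With them none of the 999 regions was called, with 68 and 51 at an unadjusted p under 0.05. Without WT Veh replicate 1 or 2 there was 1 call, and without NKO Veh replicate 1 there were 3. At the promoter of Micall1 H3K27ac was at 89.5 and 106 tags per 10 M in WT and 220 and 216 in NKO, a change of 1.15 ± 0.16 that was 0.85 with TMM and then not called. With KLA, 6 regions were higher in NKO and 1 was lower (0.400% and 0.389% of all), and 2 to 4 were called in all without NKO KLA replicate 2 or either WT KLA library. At the promoter of Afdn, an adherens junction protein, H3K27ac with KLA was at 3.77 and 2.76 in WT and at 34.5 and 22.2 in NKO (3.09 ± 0.55, adjusted p = 0.0011 in edgeR). With Veh it was at 10.1 and 12.7 in WT and already higher, at 39.8 and 16.8, in NKO. NCoR at this promoter had fallen with KLA from 27.5 and 23.5 to 10.5 and 9.68. A distal region near Rwdd2a was lower, at 16.4 and 27.6 in WT and 5.84 and 6.25 in NKO, a call that was lost without any of 3 of the libraries.

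RGFP966 with KLA, against DMSO with KLA, raised H3K27ac at 394 and lowered it at 219 of 1648 tested regions beside sites without HDAC3 (26.9% and 9.53% of all). With TMM, which moved the median of all regions by -0.34, 230 rose and 407 fell. The direction followed the distance to a TSS. Of 818 distal regions 350 rose and 4 fell, and of 830 proximal regions 44 rose and 215 fell, and with TMM these were 206 and 15, and 24 and 392. Beside sites with HDAC3, 4666 of 11568 distal regions rose and 53 fell, and 397 of 4949 proximal regions rose and 1044 fell. Median log2 changes at distal regions were 0.95 without HDAC3, 0.83 with HDAC3 and 0.89 at regions with no NCoR peak, and at proximal regions -0.64, -0.55 and -0.57. The differences between these 3 kinds of region were not tested.

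**Figure D5:**
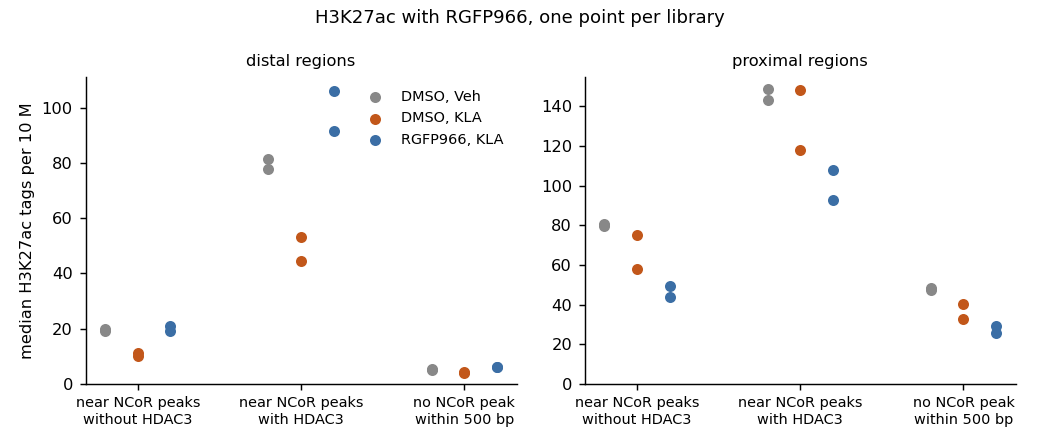
Median H3K27ac (y axis, tags per 10 M) in each library, for distal (left) and proximal (right) regions near NCoR peaks without HDAC3, near NCoR peaks with HDAC3 or near no NCoR peak (x axis), with DMSO and Veh (grey), DMSO and KLA (orange) and RGFP966 and KLA (blue). Near distal sites without HDAC3 the medians were 19.9 and 19.2, 11.01 and 10.1, and 21.1 and 18.97.

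The median of the 981 distal regions beside sites without HDAC3 was 19.9 and 19.2 tags per 10 M with DMSO and Veh, 11.01 and 10.1 with DMSO and KLA, and 21.1 and 18.97 with RGFP966 and KLA. Both libraries with DMSO and KLA were below all 4 others, and the RGFP966 libraries overlapped those with Veh. Distal regions beside sites with HDAC3 had 81.4 and 77.6, then 53.1 and 44.6, then 106 and 91.5. Those with no NCoR peak had 4.98 and 5.23, then 3.89 and 4.21, then 5.92 and 6.10. In the same order, the libraries had 31.5% and 30.6%, 27.9% and 22.9%, and 27.5% and 23.6% of their tags in regions. At 854 proximal regions beside sites without HDAC3 the medians were 80.6 and 79.8, then 75.1 and 58.1, then 49.4 and 43.7. Upstream of Rps6ka3, the kinase RSK2, H3K27ac was at 61.5 and 84.6 with Veh, 6.48 and 8.42 with KLA, and 75.7 and 82.0 with RGFP966 and KLA (3.41 ± 0.34 for RGFP966, adjusted p = 3.5e-20 in edgeR). NCoR fell there with KLA, from 53.8 and 54.1 to 4.05 and 10.4 tags per 10 M. At the promoter of Lztfl1, which had the lowest p-value of the regions that fell, H3K27ac was at 33.2 and 33.1 with Veh, 161 and 138 with KLA, and 22.4 and 18.3 with RGFP966 and KLA (-2.87 ± 0.27, adjusted p = 1.5e-22 in edgeR), while NCoR was at 29.9 and 47.1 with Veh and 30.8 and 22.1 with KLA and was not called.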

How the data were processed

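ChIP-seq tag tables of NCoR (without and with ERKi), HDAC3, p65, Fosl2, PU.1, PGC1β, ERK1, p300 and H3K27ac (WT and NKO, and RGFP966) were used, with 2 libraries per group. The deposited values are raw tag counts per region and library, made by the authors with Bowtie2 alignment to mm10 and HOMER. Factor chromatin was fixed with disuccinimidyl glutarate and formaldehyde and H3K27ac chromatin with formaldehyde alone, and peaks reproducible between replicates (irreproducible discovery rate) were joined across conditions. H3K27ac of the RGFP966 experiment was counted in windows of 1000 bp. Versions of these programs are not given in the sources used here. Input libraries were not analysed here, and no per-sample column of the tables was left unused (0).

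Counts were scaled by the library totals in the column headers. NCoR peaks and other peaks or regions were matched by their centres within 500 bp (100 bp for the NCoR table with ERKi). Factor peaks with at least 4 tags in 1 library and H3K27ac regions with at least 16 went into the two-sided quasi-likelihood test of edgeR 4.0.16 (R 4.3.3), where all groups of a table shared a fit. Calls needed an adjusted p under 0.05 and more than a 2-fold change. Standard errors are the log2 change divided by the square root of F. Alternatives were TMM, DESeq2 1.42.0, no filter, a replicate block, each library left out, HDAC3 limits of 500 and 2000 bp and other matching distances. Fits were tested on simulated data. Tables were handled with Python 3.11.15, numpy 2.4.6 and pandas 2.3.3, and figures drawn with matplotlib 3.10.9.

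The members, the lists and the rule for named sites were chosen with earlier results of these data known. Named were the 6 sites with the most NCoR, the 5 called sites of lowest p-value among those higher and among those lower, the 2 strongest sites of each list, and for each H3K27ac comparison and direction the called region of lowest p-value. Of these, 1 site and 1 sequence are not reported here. Replicates differed beyond sampling noise in every group (lowest chi-square per region 1.31). A site assigned to a gene is assigned by the nearest TSS in the tables.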

Additional observations from a re-analysis of the deposited data

How the results depend on the processing

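Of 151 alternatives to the counts and shares, 108 stayed close to the value reported and 43 moved. For counts of calls, only the total of higher and lower was compared, so a reversed balance could count as close. For RGFP966, 394 higher and 219 lower became 230 and 407 with TMM and were counted as close. Of 296 alternatives for 37 single regions, 270 kept their direction and call, 17 lost the call, 2 gained one and 7 changed direction. Causes were not tested. With HDAC3 limits of 500 and 2000 bp, 19.6% and 14.3% of NCoR peaks lacked HDAC3 (17.1% at 1000 bp), 81% and 84.2% of the sites were distal, and at 2000 bp 14.9% had an H3K27ac region. Matching within 100 or 1000 bp put a factor at 76.4% or 82.6% of sites (80.3% at 500 bp) and an H3K27ac region at 11.2% or 15.6%, and matching within 100 bp gave 5 and 4 calls in NKO cells with Veh and with KLA. DESeq2 and TMM gave 516 and 340 calls with ERKi and 0 and 0 in NKO cells with Veh (51 and 68 at an unadjusted p under 0.05). DESeq2 gave 449 for Fosl2, and TMM 763 for PU.1. Without the lowest 2 quintiles, an alternative chosen after seeing the data as was the one without exons, 3' UTRs and transcription ends, 364 NCoR calls were left.

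Leaving out 1 library at a time gave 718 to 5212 calls for NCoR with KLA, 653 to 2944 with ERKi, 849 to 2617 for p65, 0 to 794 for Fosl2 by edgeR (121 at an unadjusted p under 0.05 where 0), 155 to 620 for PGC1β, 26 to 194 for ERK1 and 1907 to 3039 for p300. For H3K27ac it gave 27 to 50 with KLA, 1 to 6 in NKO cells with Veh and 2 to 5 with KLA. Log2 changes of NCoR ran from -0.25 to 0.12 at Ccl4, -0.41 to 1.82 at Il1b, -0.13 to 0.39 at Nfkbiz and -0.21 to 0.26 at Mx1. With 1 library left in a group, that library is assumed to vary like the others. Replicate numbers were not used to pair the libraries, as the labels give no shared batch for them. Differences between replicates 1 and 2 correlated across groups at r of -0.0266 to 0.0878 over 19 pairs of groups. Whether libraries with the same number share a preparation was not tested. A replicate block gave 57 Fosl2 and 81 ERK1 calls, 2797 for NCoR with KLA and 2411 with ERKi. The part of depth in the counts of calls was not tested.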
